A study of Homo sapiens with 18 samples.

Results

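Collagen and laminin chains are each encoded by a gene of their own, and 56 such genes were followed in lung cancer cells upon SYK knockdown. They were chosen by name alone, as the protein-coding genes whose symbol is COL, a number, A and a number, or LAM followed by A, B or C and a digit. They made up 56 of the 58302 genes measured (19847 protein-coding), with 44 collagen and 12 laminin genes. RNA was sequenced from 3 lung cancer cell lines, EBC-1, which carries MET amplification, and PC-9 and HCC827, which carry an EGFR exon 19 deletion. Each line was measured as a negative control (nc) and as a stable knockdown in which a lentivirus delivered a single shRNA clone against SYK (shSYK), with 3 libraries in each of the 6 groups and 18 in all. With that single clone, an effect of that clone and of SYK loss cannot be told apart. Nothing states whether the 3 libraries of a group came from separate cultures, so p-values measure only the spread between these libraries.

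Between 7920099 and 15729103 reads per library lay on genes. SYK itself was lower in the shSYK libraries of each line, at 52.3% (EBC-1), 32.1% (PC-9) and 32.9% (HCC827) of its nc level, and its nc and shSYK values overlapped in none of the lines (FPKM, fragments per kilobase of gene, scaled for sequencing depth). The 6 epithelial markers checked (EPCAM, CDH1, KRT7, KRT8, KRT18 and KRT19) were above FPKM 1 in each line. Their summed FPKM in EBC-1 was lower in shSYK (1410 to 1520) than in nc (1930 to 2210). The groups overlapped in PC-9 (3400 to 5830 in nc, 4010 to 4490 in shSYK) and HCC827 (4370 to 4820 in nc, 3740 to 4420 in shSYK). None of the 7 fibroblast markers and none of the 5 immune markers reached a mean FPKM of 1 in any line, and the summed FPKM of the fibroblast markers was at most 0.57 in any library, in the nc cells of EBC-1, against 0.115 to 0.182 in the shSYK cells. Of 4 endothelial markers, PECAM1 (mean FPKM 9.19) and CDH5 (2.40) were expressed in PC-9, where the summed level of the 4 was 15.1 to 17 in nc and 6.62 to 7.94 in shSYK. Their part in the results was not tested.

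Laminins are cross-shaped proteins made of an alpha, a beta and a gamma chain. Together with networks of type IV collagen they form the basement membrane, the sheet on which epithelial cells stand. LAMA3 and LAMB3 encode an alpha and a beta chain of the laminin that anchors epithelia through integrins, where the collagens XVII and VII belong to the hemidesmosome and its anchoring fibrils. The laminin of alpha5, beta1 and gamma1 chains (LAMA5, LAMB1 and LAMC1; laminin-511) is the broad laminin of mature epithelial and endothelial basement membranes. Collagens are triple helices, and some types are built from partner chains, such as COL4A1 with COL4A2 or COL6A1 with COL6A2 and COL6A3. Fibrillar collagens (types I, III and V) are mainly products of fibroblasts.

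Several of these partner genes are placed head to head in the genome, so that a pair shares the stretch between its start sites. In the RefSeq annotation of GRCh38.p14, the start sites of COL4A1 and COL4A2 lay 127 bases apart on chromosome 13. Those of COL4A6 and COL4A5 lay 380 bases apart on chromosome X, or 1416 for a second start of COL4A6. The start sites of COL4A4 and COL4A3 lay 419 bases apart on chromosome 2. The RefSeq table used here held a window of 250 bases before to 50 bases after a start for 41 of the 56 chain genes (22 of the 26 expressed in at least 1 line). 7 windows are printed, those of the type IV chains COL4A2, COL4A5 and COL4A6, those of COL6A2 and COL18A1, the collagen chains with the largest falls described below, and those of LAMA3 and LAMB3, which were chosen because they hold the AP-1 word. Capitals mark 2 words found by letter search on both strands, and no match of the first overlaps a match of the second: GGGCGG, the core of the GC box that Sp1 binds (read as CCGCCC on the other strand), and TGANTCA, which AP-1 factors such as FRA1 bind.

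COL4A2 (chr13:110307034-110307333, plus strand): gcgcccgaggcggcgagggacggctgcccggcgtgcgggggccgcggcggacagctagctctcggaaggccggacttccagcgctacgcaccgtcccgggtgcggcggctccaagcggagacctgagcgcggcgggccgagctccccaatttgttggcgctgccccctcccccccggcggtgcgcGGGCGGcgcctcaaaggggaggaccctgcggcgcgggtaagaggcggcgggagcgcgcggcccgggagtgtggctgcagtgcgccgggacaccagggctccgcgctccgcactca
COL4A5 (chrX:108439588-108439887, plus strand): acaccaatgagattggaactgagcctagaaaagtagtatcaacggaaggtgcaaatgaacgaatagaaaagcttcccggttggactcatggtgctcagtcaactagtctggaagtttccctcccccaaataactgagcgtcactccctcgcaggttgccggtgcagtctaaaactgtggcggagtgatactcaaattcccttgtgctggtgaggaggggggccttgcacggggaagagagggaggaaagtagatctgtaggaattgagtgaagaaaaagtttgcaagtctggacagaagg
COL4A6 (chrX:108439409-108439708, minus strand): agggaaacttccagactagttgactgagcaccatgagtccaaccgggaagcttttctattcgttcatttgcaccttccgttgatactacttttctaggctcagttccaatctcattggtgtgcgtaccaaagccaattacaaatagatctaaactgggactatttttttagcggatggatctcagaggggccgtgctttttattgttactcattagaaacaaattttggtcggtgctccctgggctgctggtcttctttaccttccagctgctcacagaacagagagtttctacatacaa
COL6A2 (chr21:46097862-46098161, plus strand): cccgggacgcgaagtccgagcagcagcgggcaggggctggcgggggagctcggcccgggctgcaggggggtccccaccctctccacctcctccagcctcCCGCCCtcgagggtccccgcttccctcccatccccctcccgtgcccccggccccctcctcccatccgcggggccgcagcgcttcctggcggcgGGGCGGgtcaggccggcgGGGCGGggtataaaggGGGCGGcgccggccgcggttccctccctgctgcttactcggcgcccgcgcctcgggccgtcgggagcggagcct
COL18A1 (chr21:45404915-45405214, plus strand): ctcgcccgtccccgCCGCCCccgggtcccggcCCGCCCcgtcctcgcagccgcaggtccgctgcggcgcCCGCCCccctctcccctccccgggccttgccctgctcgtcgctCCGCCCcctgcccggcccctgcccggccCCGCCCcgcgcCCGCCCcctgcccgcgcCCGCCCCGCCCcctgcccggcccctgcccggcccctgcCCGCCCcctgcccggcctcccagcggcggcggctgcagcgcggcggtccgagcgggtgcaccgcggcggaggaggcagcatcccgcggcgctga
LAMA3 (chr18:23872770-23873069, plus strand): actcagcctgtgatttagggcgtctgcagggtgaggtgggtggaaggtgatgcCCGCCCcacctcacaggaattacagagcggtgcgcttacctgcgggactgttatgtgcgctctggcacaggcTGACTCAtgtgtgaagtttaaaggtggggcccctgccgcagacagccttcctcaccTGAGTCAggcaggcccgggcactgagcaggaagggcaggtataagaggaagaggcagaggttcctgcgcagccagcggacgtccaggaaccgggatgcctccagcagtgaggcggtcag
LAMB3 (chr1:209651325-209651624, minus strand): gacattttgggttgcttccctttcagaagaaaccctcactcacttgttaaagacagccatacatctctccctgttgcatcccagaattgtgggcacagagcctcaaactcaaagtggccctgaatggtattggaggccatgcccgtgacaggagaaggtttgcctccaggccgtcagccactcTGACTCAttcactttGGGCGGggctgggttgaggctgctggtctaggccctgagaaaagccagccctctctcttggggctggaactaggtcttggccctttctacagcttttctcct

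The printed windows of COL4A5 and COL4A6 overlap by 121 bases and hold neither word. That of COL4A6 is 1 of 2 listed for the gene, and the other held 1 GC box. The printed window of COL18A1, 1 of 2 listed for that gene, held 9 GC boxes and the other held 1, while that of COL6A2 held 4. The LAMA3 window lies 183577 bases inside the gene model of the tables, at an internal start, and held 2 AP-1 words. The LAMB3 window is 1 of 3 listed for that gene and held 1. The AP-1 word was in 3 of the 55 chain windows (5.45%, those of COL10A1, LAMA3 and LAMB3), against 7.71% of 35116 windows over all genes. The GC box was in 58.2% of the chain windows, in 76.7% of the 30 windows of expressed chains and in 44.95% of all windows. The share of all windows includes genes that are not expressed here. No share for expressed genes alone was computed to set beside the expressed chains. A word found by letters is a description of the window and says nothing about binding.

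The cells expressed about the same set of laminins and differed in their collagens. A chain was counted as expressed in a line when its mean FPKM over the 6 libraries was at least 1. By this measure EBC-1 expressed 22 chains (14 collagen and 8 laminin), PC-9 18 (10 and 8) and HCC827 17 (9 and 8). There were 12 chains in all 3 lines, among them LAMA3, LAMA5, LAMB1, LAMB2, LAMB3, LAMC1, COL1A1, COL4A5, COL6A1, COL9A2 and COL18A1, so 7 of the 12 laminin genes and 5 of the 44 collagen genes were shared. COL5A1, COL11A2 and COL4A6 passed in EBC-1 alone, COL12A1 and COL16A1 in PC-9 alone, and COL4A1 and LAMC3 in HCC827 alone. COL13A1, COL6A2, COL7A1 and LAMA4 passed in EBC-1 and PC-9, and COL17A1, COL27A1 and COL4A2 in EBC-1 and HCC827. The 3 tables were normalized separately, so levels are set side by side across lines without a test.

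**Figure D1:**
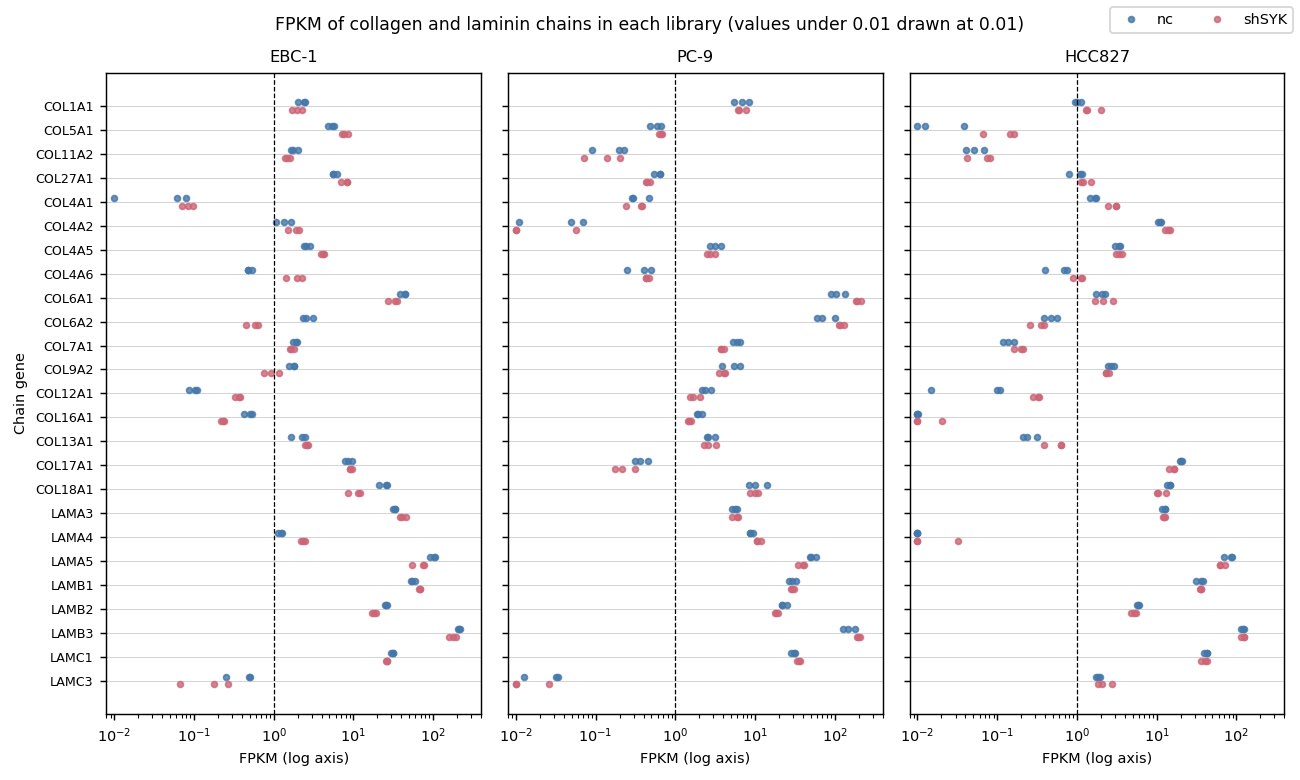
FPKM of chain genes expressed in at least 1 cell line, on a log axis, with 1 point per library (blue, nc; red, shSYK) and a dashed line at FPKM 1. LAMB3 stands at the right in each line, and LAMA5 does so in EBC-1 and HCC827. COL6A1 and COL6A2 lie between 59.9 and 214 in PC-9, and COL4A6 in EBC-1 crosses the dashed line in shSYK cells.

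Laminin chains were among the most abundant chains in each line. LAMB3 was the highest of the 56 chains by mean FPKM in each line, with 194 for EBC-1, 174 for PC-9 and 120 for HCC827. COL6A1 (153) followed in PC-9. LAMA3, the alpha chain that pairs with LAMB3, was far below it, at 37.1, 5.65 and 12.4. FPKM divides by the whole gene model, 13522 bases for LAMA3 and 4688 for LAMB3. A shorter LAMA3 transcript from the internal start would be understated on this scale. Which transcripts were made was not tested. The laminin-511 chains were also present in each line, with LAMA5 at 84.1, 45.3 and 73.3, LAMB1 at 61.9, 29.4 and 35.4, and LAMC1 at 28.3, 32.6 and 40.4 in EBC-1, PC-9 and HCC827. LAMA4, the alpha chain typical of vessel and mesenchymal basement membranes, reached 9.91 in PC-9 and 1.77 in EBC-1, and had at most 4 reads in any HCC827 library.

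Of the collagens, type VI chains marked PC-9. COL6A1 had a mean FPKM of 153 and COL6A2 of 98.3 in PC-9, against 37.2 and 1.61 in EBC-1, and COL6A1 was 2.12 in HCC827, where COL6A2 was under 1. COL6A3, the long chain that joins COL6A1 and COL6A2 in the common type VI trimer, had at most 11 reads in any library of the 3 lines. The basement membrane collagen was COL4A2 in HCC827 (12.3, with COL4A1 at 2.25), while COL4A1 had at most 13 reads in EBC-1 and at most 40 in PC-9. COL4A5 was at 2.98 to 3.35 in the 3 lines. COL17A1, the transmembrane collagen of hemidesmosomes, was at 8.96 in EBC-1 and 17.9 in HCC827, and at 0.304 in PC-9. COL7A1, the anchoring fibril collagen, was at 1.78 in EBC-1 and 4.91 in PC-9, and at 0.164 in HCC827.

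Chains of the fibroblast matrix were mostly at the floor. COL1A1 was at 2.14 (EBC-1), 6.76 (PC-9) and 1.28 (HCC827), but COL1A2, with which it forms type I collagen, had no read in EBC-1, at most 6 reads per library in PC-9 and at most 1 in HCC827. COL3A1 had at most 1 read in any library. COL5A2 stayed at a mean FPKM of at most 0.16 in any line, including EBC-1, where COL5A1 was at 6.53. There were 30 chains under FPKM 1 in all 3 lines, 7 of which had no more than 3 reads in any library, and the highest count of any of them was 186 reads. Only COL8A1, a chain of a short network collagen, reached FPKM 1 in a library without passing, in EBC-1, with 0.84, 0.732 and 0.631 in nc and 1.21, 1.33 and 1.16 in shSYK. With a mean of 0.983 it was not tested.

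The response was tested within each line as shSYK against nc, with limma on log2(FPKM + 1) over all genes at a mean FPKM of at least 1, and a gene was called at a Benjamini-Hochberg adjusted p under 0.05. Fold changes are given with their standard error (SE). In EBC-1, 7 chains were higher and 8 lower of 22 tested. Over all 12430 genes tested there, 23.1% were called higher and 21.6% lower, beside 31.8% and 36.4% of the chains. Only 4 chains were lower without nc replicate 1, and 4 without nc replicate 3. The chains' shares were not tested against those of all genes. In HCC827, 2 chains were higher and 4 lower of 17, or 11.8% and 23.5%, beside 17.2% and 20.7% of 11999 genes. In PC-9 none of 18 chains was called, where 0.678% and 1.41% of 12089 genes were called higher and lower. The PC-9 nc libraries differed most among themselves (chi-square per degree of freedom between replicates 9.47 to 38.7, against 2.11 to 12.2 in the other groups). The lack of calls there does not show that the response was weak. At an unadjusted p under 0.05, PC-9 had 4 chains higher and 5 lower, and limma-voom on the recovered reads called 1 higher and 1 lower.

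The median log2 fold change of the tested chains was -0.04 (EBC-1), -0.02 (PC-9) and 0.00168 (HCC827), close to the medians of all genes (0.009, 0.00876 and -0.00535). The 3 nc and the 3 shSYK values did not overlap for 16 chains in EBC-1 (72.7%, against 56.9% of all genes tested), for 10 in PC-9 (55.6%, against 23.7%) and for 7 in HCC827 (41.2%, against 52.3%). Rescaling the libraries to an equal sum moved the median of all genes in EBC-1 to 0.12. Its calls went from 2876 higher and 2686 lower to 4029 and 1895 of 12436 genes. In HCC827 the rescaling moved the calls from 2066 and 2488 to 2483 and 1903. On that scale 7 chains were higher and 5 lower of 22 in EBC-1 (COL6A1, LAMB3 and LAMC1 were lost). Their higher share there no longer stood above that of all genes. In HCC827, 2 chains were higher and 2 lower (COL18A1 and LAMA5 were lost).

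**Figure D2:**
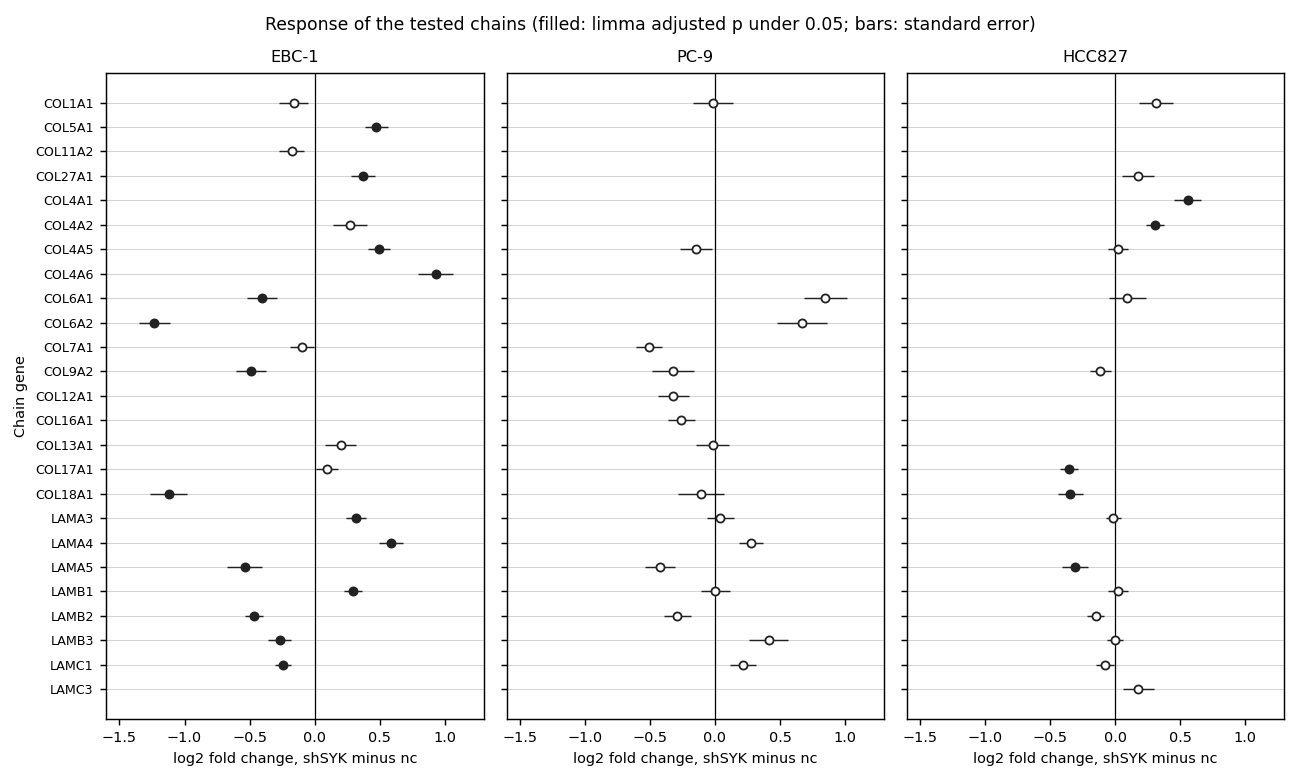
The log2 fold change of tested chains in each line, shSYK minus nc on the log2(FPKM + 1) scale, with bars of 1 standard error; filled points have a limma adjusted p under 0.05. In EBC-1 the points spread from -1.23 (COL6A2) to 0.93 (COL4A6), the points of PC-9 are open, and HCC827 has 5 filled points between -0.35 and 0.56.

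Across lines, COL18A1 and LAMA5 were called lower in EBC-1 and HCC827. No chain was called higher in 2 lines, and no chain was called higher in a line and lower in another. The share of all genes called the same way in 2 lines was not computed. Of the 12 chains tested in all 3 lines, 5 had the same sign of change in each, namely COL18A1, COL9A2, LAMA5 and LAMB2 (lower) and LAMB1 (higher). These are counts of signs, and 3 of the 5 were called in EBC-1 only (COL9A2, LAMB1 and LAMB2). The log2 fold change of LAMB1 was only 0.0024 in PC-9 and 0.024 in HCC827. The share of all genes with the same sign in the 3 lines was not computed, so the count is not read as particular to the chains. LAMA5 kept its sign in each line under every alternative run, while the sign of COL18A1 and LAMB1 in PC-9 and of COL9A2, LAMB1 and LAMB2 in HCC827 turned in at least 1.

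LAMA3 and LAMB3 did not change in step upon SYK knockdown in EBC-1. The LAMA3 FPKM was 33, 33.7 and 31.8 in the nc libraries and 40.7, 38 and 45.2 in the shSYK libraries. Every shSYK value was above every nc value, and LAMA3 was called higher (log2 fold change 0.32, SE 0.08, limma adjusted p = 0.0135), a call lost when the trend on gene length was removed. The LAMB3 FPKM was 218, 205 and 212 in nc and 177, 156 and 196 in shSYK. LAMB3 was called lower (-0.27, SE 0.09, limma adjusted p = 0.0427), a call close to the threshold that was lost in 11 of 17 alternatives. Within each library, the ratio of LAMB3 to LAMA3 averaged 6.46 ± 0.313 for nc (SD, n = 3) against 4.27 ± 0.143 for shSYK, with no overlap (exact two-sided permutation p = 0.1, the smallest that 3 libraries against 3 allow). Since the chains moved in opposite directions, each without overlap, the ratio could not overlap and adds no separate evidence.

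In HCC827 LAMA3 was at 11.8 to 12.9 in nc and 11.9 to 12.6 in shSYK, and LAMB3 at 115 to 123 and 113 to 125, in both cases with full overlap. In PC-9 the LAMB3 FPKM was 178, 126 and 145 in nc and 194, 189 and 210 in shSYK, with a difference of 0.41 on the log2 scale that was not called (limma adjusted p = 0.238, and 0.0313 without nc replicate 1, the highest of the nc libraries). It was called in 5 of 17 alternatives, with a limma adjusted p of up to 0.566.

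Of the laminin-511 chains, LAMA5, the alpha chain, was called lower in EBC-1 and HCC827. In EBC-1 its FPKM was 105, 90.1 and 103 in nc and 77, 74.5 and 54.7 in shSYK (log2 fold change -0.54, SE 0.13, limma adjusted p = 0.0152). The HCC827 values of LAMA5 were 85.7, 88.1 and 70.5 in nc and 71.8, 62.2 and 61.7 in shSYK, so shSYK replicate 1 lay above nc replicate 3 (-0.31, SE 0.10, limma adjusted p = 0.0423). The PC-9 values were 57.5, 49.9 and 48.8 in nc and 40.6, 35.1 and 40.1 in shSYK, with no overlap and a difference of -0.42 on the log2 scale (limma adjusted p = 0.134). LAMA5 was thus lower in 3 of 3 lines by its mean. The EBC-1 call was lost without nc replicate 1 (0.0568) or nc replicate 3 (0.0505), and the HCC827 call without nc replicate 1 or 2 or shSYK replicate 2 or 3 (0.114 to 0.126). Over all 17 alternatives, the EBC-1 call held in 14 and the HCC827 call in 7.

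LAMB1 and LAMC1, the beta and gamma chains of that trimer, moved apart in EBC-1. LAMB1 was at 54.6, 59.6 and 52.5 in nc and at 68.2, 67 and 69.4 in shSYK (log2 fold change 0.29, SE 0.07, limma adjusted p = 0.0111, and 0.0522 without nc replicate 1). LAMC1 was at 31.2, 29.8 and 31.4 in nc and at 25.3, 26.2 and 26.1 in shSYK (-0.24, SE 0.06, limma adjusted p = 0.0137). The LAMC1 call was lost without nc replicate 1, nc replicate 3 or shSYK replicate 1 (0.0509 to 0.0655). The ratio of LAMC1 to LAMB1 was 0.557 ± 0.0502 in nc and 0.379 ± 0.00975 in shSYK. In HCC827, LAMB1 was at 31.2 to 38.1 in nc and 35.1 to 36.4 in shSYK, and LAMC1 at 39.8 to 42.4 and 35.6 to 42.2. In PC-9, LAMB1 was at 26.8 to 32.7 and 28.4 to 30.4, and LAMC1 at 28.3 to 31.5 in nc and 33.4 to 36.3 in shSYK.

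LAMB2, the beta chain that replaces LAMB1 in other laminins, was lower in EBC-1, with 26.1, 25.7 and 24.7 in nc and 19.2, 18.1 and 17.3 in shSYK (log2 fold change -0.47, SE 0.07, limma adjusted p = 0.00165), and this call held in 17 of 17 alternatives. Within libraries, the ratio of LAMB2 to LAMB1 was 0.46 ± 0.0245 in nc and 0.267 ± 0.0168 in shSYK. In PC-9 LAMB2 was at 25.1, 22.1 and 21.7 in nc and 17.8, 18.6 and 19.4 in shSYK (-0.29, limma adjusted p = 0.235), and in HCC827 at 5.88, 5.94 and 5.64 against 5.51, 5.14 and 4.82 (-0.15, limma adjusted p = 0.109). The shSYK libraries were below the nc libraries in each line, but only EBC-1 passed the test.

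LAMA4 was called higher in EBC-1 from a low level, with 1.25, 1.27 and 1.12 in nc and 2.18, 2.47 and 2.32 in shSYK, 191% of the nc level (log2 fold change 0.59, SE 0.09, limma adjusted p = 0.00238). On the log2(FPKM + 1) scale, fold changes of chains at such levels are understated. In PC-9, where LAMA4 was more abundant, it was at 8.62, 9.39 and 8.6 in nc and 10.7, 11.7 and 10.5 in shSYK, again with no overlap (0.28, limma adjusted p = 0.212). LAMC3, the gamma3 chain, was at 1.73 to 1.95 in nc and 1.84 to 2.75 in shSYK in HCC827 and was not called.

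**Figure D3:**
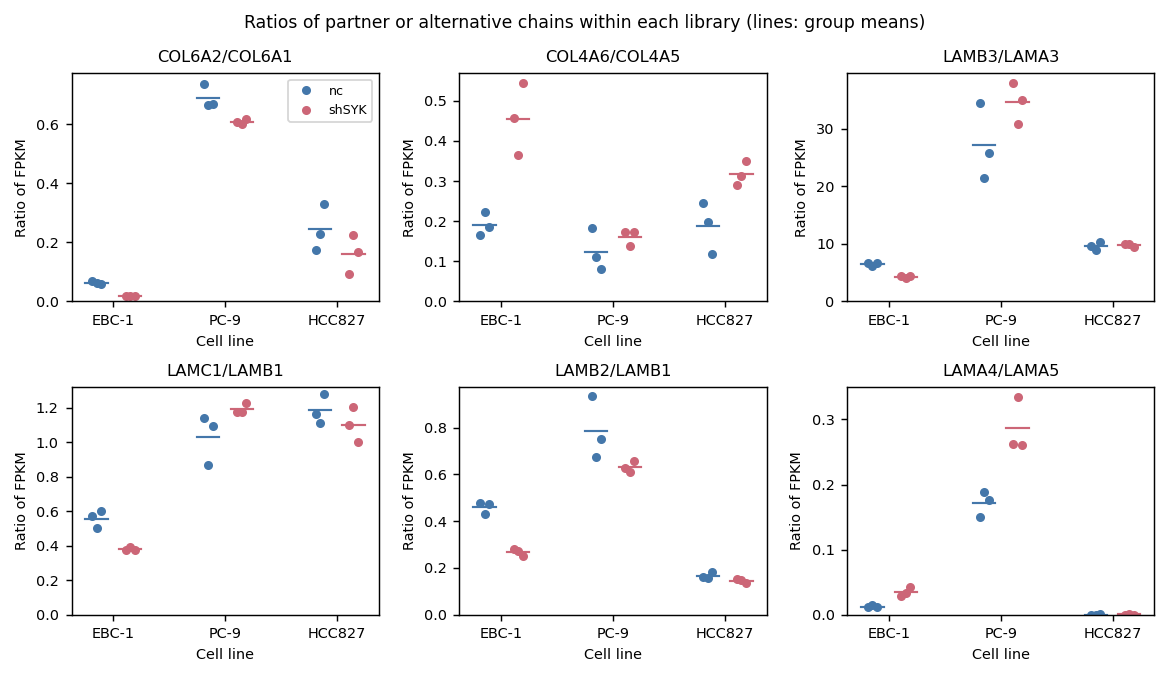
Ratios of FPKM between partner or alternative chains within each library (points) with group means (lines), nc in blue and shSYK in red. In EBC-1 the ratios COL6A2/COL6A1, LAMB3/LAMA3, LAMC1/LAMB1 and LAMB2/LAMB1 lie lower in shSYK and COL4A6/COL4A5 and LAMA4/LAMA5 higher, with no overlap of the groups. For the laminin ratios this follows from single chains that moved in opposite directions, each without overlap.

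No type IV chain was called lower, and the members called higher differed between EBC-1 and HCC827. A call in only 1 of these lines does not show that the responses differed. In EBC-1, COL4A5 was at 2.87, 2.37 and 2.57 in nc and at 4.25, 3.87 and 4.12 in shSYK (log2 fold change 0.50, SE 0.08, limma adjusted p = 0.00316). Its head-to-head partner COL4A6, with which it forms the alpha5 and alpha6 network, was at 0.477, 0.529 and 0.475 in nc and at 1.94, 1.41 and 2.25 in shSYK, 378% of the nc level (0.93, SE 0.14, limma adjusted p = 0.00185). COL4A6 passed the filter on low values only through its shSYK libraries, with as few as 52 reads in a library. COL4A2 was at 1.65, 1.07 and 1.34 in nc and at 2.05, 1.93 and 1.53 in shSYK, overlapping (0.27, limma adjusted p = 0.126).

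In HCC827 the type IV chains called were COL4A1 and COL4A2. The log2 fold change of COL4A2 was 0.27 in EBC-1 and 0.30 in HCC827, and its response was not called different between them. COL4A1 was at 1.67, 1.75 and 1.47 in nc and at 3.12, 3.09 and 2.43 in shSYK (log2 fold change 0.56, SE 0.10, limma adjusted p = 0.00511). COL4A2 was at 11.1, 11.4 and 10.3 in nc and at 14.7, 14 and 12.6 in shSYK (0.30, SE 0.07, limma adjusted p = 0.013). Both were higher in 3 of 3 shSYK libraries than in every nc library, and both calls held in each alternative that tested them, 16 for COL4A1 and 17 for COL4A2. The ratio of COL4A1 to COL4A2 was 0.149 ± 0.00555 in nc and 0.209 ± 0.0146 in shSYK, with no overlap. In HCC827 COL4A5 was at 3.04 to 3.45 in nc and 3.08 to 3.63 in shSYK. COL4A6, at a mean of 0.836, was not tested there, although its mean over the shSYK libraries alone reached FPKM 1. The ratio of COL4A6 to COL4A5 in HCC827 was 0.187 ± 0.0638 in nc and 0.318 ± 0.0297 in shSYK, with no overlap.

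The summed FPKM of the 6 type IV chains was 4.53 ± 0.542 in nc and 7.91 ± 0.518 in shSYK for EBC-1, 16.5 ± 0.858 and 21.1 ± 1.26 for HCC827, and 5.12 ± 0.662 and 4.39 ± 0.284 in PC-9. No overlap of nc and shSYK was seen in EBC-1 and HCC827 (exact permutation p = 0.1 in each) while PC-9 had overlapping values (p = 0.2). Reads of COL4A1 and COL4A2 could be exchanged at their overlap, since the gene models of the tables overlap on opposite strands at 110305812 to 110307149 of chromosome 13 and no source states that counting used the strand.

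By the test of the difference given further on, the response of the type VI chains differed between EBC-1 and PC-9. That test shares its estimate of the spread across lines, and the test within PC-9 called neither chain. In EBC-1, COL6A2 (chr21:46098097-46132849) was at 3.14, 2.32 and 2.55 in nc and at 0.637, 0.587 and 0.45 in shSYK, 20.9% of the nc level (log2 fold change -1.23, SE 0.12, limma adjusted p = 0.000404). It was the largest fall among the chains of EBC-1 and passed the filter mainly through its nc libraries. COL6A1 (chr21:45981737-46005050), its partner on the same chromosome arm, was at 45, 38 and 44.2 in nc and at 35.2, 33.3 and 27.1 in shSYK (-0.40, SE 0.11, limma adjusted p = 0.0229, and 0.0829 and 0.0741 without nc replicates 1 and 3). The ratio of COL6A2 to COL6A1 was 0.0628 ± 0.00621 in nc and 0.0174 ± 0.000747 in shSYK.

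In PC-9 COL6A1 was at 136, 90.1 and 104 in nc and at 191, 185 and 214 in shSYK, 178% of the nc level. COL6A2 was at 100, 59.9 and 70 in nc and at 116, 112 and 132 in shSYK, 156% of the nc level. Every shSYK value of each chain lay above every nc value. The log2 fold changes were 0.85 (SE 0.17, limma adjusted p = 0.0516) and 0.67 (SE 0.19, limma adjusted p = 0.149), and neither was called. Without nc replicate 1, which had the highest level of both chains among the nc libraries, the adjusted p was 0.00535 for COL6A1 and 0.00929 for COL6A2. Over all alternatives COL6A1 was called in 10 and COL6A2 in 5 of 17. The summed FPKM of the type VI chains was 187 ± 44.6 in nc and 317 ± 25.8 in shSYK, which was 31.5% and 41.9% of the FPKM of all 56 chains. In HCC827 COL6A1 was at 1.72 to 2.23 in nc and 1.71 to 2.87 in shSYK.

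COL18A1 (chr21:45405137-45513720), the basement membrane collagen from which endostatin is released, was called lower in EBC-1 and HCC827. In EBC-1 it was at 25.8, 20.9 and 26.1 in nc and at 11.5, 12.1 and 8.46 in shSYK, 43.9% of the nc level (log2 fold change -1.12, SE 0.14, limma adjusted p = 0.00101). The COL18A1 FPKM of HCC827 was 14.6, 14.9 and 13.3 in nc and at 12.9, 10 and 10.3 in shSYK (-0.34, SE 0.10, limma adjusted p = 0.027), and this call was lost without nc replicate 1 or 2 or shSYK replicate 2 or 3 (0.0748 to 0.0888). The PC-9 libraries had 14, 8.47 and 10 in nc and at 9.98, 8.59 and 10.9 in shSYK, with the groups overlapping. The EBC-1 call held in 17 of 17 alternatives and the HCC827 call in 8.

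Of the hemidesmosome and anchoring collagens, COL17A1 was called lower in HCC827, with 20.3, 20.8 and 19.6 in nc and 14.2, 16.4 and 16.4 in shSYK (log2 fold change -0.35, SE 0.07, limma adjusted p = 0.00637). It was at 9.71, 8.45 and 7.8 in nc and at 9.12, 8.99 and 9.69 in shSYK in EBC-1, with the groups overlapping. COL7A1 was at 5.95, 6.52 and 5.36 in nc and at 4.07, 3.77 and 3.79 in shSYK in PC-9, with no overlap (-0.51, SE 0.10, limma adjusted p = 0.0507, and 0.0361 without nc replicate 1). This difference was called in 5 of 16 alternatives, with a limma adjusted p of up to 0.233. In EBC-1 COL7A1 was at 1.74 to 1.98 in nc and 1.61 to 1.8 in shSYK.

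Among fibrillar chains, COL5A1 and COL27A1 were called higher in EBC-1. COL5A1, a regulator of fibril width, was at 5.65, 4.84 and 5.4 in nc and at 8.51, 7.14 and 7.62 in shSYK (log2 fold change 0.47, SE 0.09, limma adjusted p = 0.00446). COL27A1, a collagen of cartilage, was at 6.3, 5.54 and 5.58 in nc and at 8.31, 8.21 and 6.95 in shSYK (0.37, SE 0.09, limma adjusted p = 0.0126, and 0.144 with the trend on gene length removed). COL1A1 was not called in any line. It was at 2.04 to 2.47 in nc and 1.69 to 2.28 in shSYK in EBC-1, at 5.43 to 8.29 and 6.12 to 7.61 in PC-9, and at 0.945, 0.997 and 1.14 in nc and 2.01, 1.28 and 1.33 in shSYK in HCC827 (0.32, SE 0.13, limma adjusted p = 0.0964). In HCC827 the COL1A1 groups did not overlap, and limma-voom on the recovered reads gave an adjusted p of 0.0101.

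COL9A2, a fibril-associated chain, was called lower in EBC-1, with 1.78, 1.81 and 1.57 in nc and 0.752, 1.15 and 0.921 in shSYK, 54.7% of the nc level (log2 fold change -0.49, SE 0.12, limma adjusted p = 0.0122). It passed the filter mainly through its nc libraries. Its PC-9 values were 3.85 to 6.55 in nc and 3.58 to 4.18 in shSYK, and those of HCC827 2.46 to 2.93 and 2.31 to 2.56. COL12A1 and COL16A1, also fibril-associated, were tested in PC-9 alone, at 2.16 to 2.77 in nc and 1.54 to 2.02 in shSYK for COL12A1 and 1.88 to 2.19 and 1.45 to 1.58 for COL16A1, and neither was called. COL11A2 was at 1.64 to 2.01 in nc and 1.37 to 1.59 in shSYK in EBC-1. COL13A1, a transmembrane collagen, was at 1.64 to 2.5 and 2.49 to 2.66 in EBC-1 and at 2.52 to 3.11 and 2.31 to 3.21 in PC-9.

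Summed over the 56 genes, chain FPKM was 702 ± 24.2 in nc and 630 ± 26.2 in shSYK in EBC-1, 589 ± 84.2 and 754 ± 44.8 in PC-9, and 480 ± 17.5 and 441 ± 19.2 in HCC827, with no overlap in any line (exact permutation p = 0.1 in each, the smallest possible). The total FPKM of the libraries differed too, and per 1000 of that total the chain sum was 2.56 ± 0.0546 in nc and 2.51 ± 0.132 in shSYK for EBC-1 and 1.39 ± 0.0851 and 1.33 ± 0.0525 for HCC827, overlapping for both lines, so their lower sums held on the deposited scale alone. On the same scale PC-9 was at 1.92 ± 0.0654 and 2.42 ± 0.107, without overlap. Laminins made up 84.8% of the sum in nc and 86% in shSYK cells of EBC-1, and 87.6% and 86.8% for HCC827. The laminin share of PC-9 was 61% in nc and 53.1% in shSYK, and the summed collagen FPKM was 231 ± 49.5 and 354 ± 27.2.

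**Figure D4:**
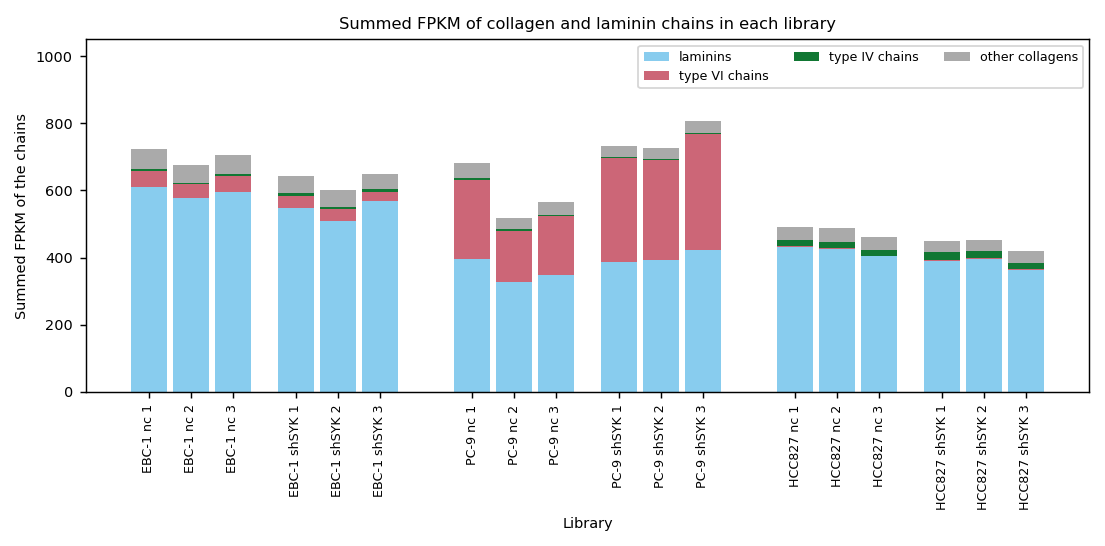
Summed FPKM of the 56 chains in each of the 18 libraries, stacked by group. The red type VI part is visible in PC-9, where it is taller in the 3 shSYK libraries (297 to 346) than in the 3 nc libraries (150 to 236), and the laminin part is the largest part of each library.

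The difference between lines was tested directly, as the contrast of their shSYK minus nc responses in a single fit of all 18 libraries. That fit uses a shared estimate of the spread, although the PC-9 nc libraries differed most among themselves. A fit of all 18 libraries raised the PC-9 calls over all genes from 82 higher and 171 lower to 660 and 851. Adjusted p-values of contrasts with PC-9 may therefore be too small. EBC-1 and PC-9 differed in 12 of 26 chains (beside 18.3% of 14636 genes), EBC-1 and HCC827 in 12 (beside 20.6%), and PC-9 and HCC827 in 5 (beside 7.63%), 18 chains in all. Between EBC-1 and PC-9 the difference was largest for COL6A2 (-1.90, SE 0.20, limma adjusted p = 1.34e-05), followed by COL6A1 (-1.25, SE 0.21, limma adjusted p = 0.000889) and COL18A1 (-1.01, SE 0.23, limma adjusted p = 0.00591). LAMB3 (-0.68, limma adjusted p = 0.00586) and LAMC1 (-0.46, limma adjusted p = 0.00356) were lower in EBC-1 and higher in PC-9 by their fold changes. For LAMA5, no pair of lines differed past the threshold (adjusted p of 0.407, 0.702 and 0.81), which does not show that the responses were equal. COL4A1 differed between HCC827 and both other lines (-0.51 for EBC-1 minus HCC827 and -0.57 for PC-9 minus HCC827), lines in which its mean FPKM was 0.0674 and 0.341.

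The called chains differed in base composition. In EBC-1 the longest transcripts of the 7 chains called higher had a median GC content of 51.8% (45.1 to 61.3%), and those of the 8 called lower 64.2% (48.8 to 67.2%). The 26 expressed chains were longer and richer in GC than all 11798 expressed protein-coding genes, with a median gene model of 8466 against 4908 bases and 60.3% against 48.7% GC. After removal, within each library, of the trends with gene length and GC content, EBC-1 had 8 chains higher (COL4A2 was gained) and 6 lower (COL9A2 and LAMB3 were lost), and COL18A1 (-0.98), COL6A2 (-1.02) and COL4A6 (0.96) kept their size. In HCC827 5 chains were higher (COL1A1, LAMB3 and LAMC3 were gained) and 1 lower, with COL17A1, COL18A1 and LAMA5 lost. In PC-9 3 were higher (COL6A1, COL6A2 and LAMB3) and 1 lower (LAMA5).

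Genes that fold, process, crosslink or receive these chains were followed as 57 listed partners. In EBC-1 8 of 39 tested were higher and 17 lower, in HCC827 10 of 37 were higher and 13 lower, and in PC-9 none of 40 was higher and 1 lower (6 higher and 4 lower at an unadjusted p under 0.05, and 2 and 2 with limma-voom), beside the shares of all genes given above. The median log2 fold change of the tested partners was -0.16, -0.07 and 0.05 in EBC-1, HCC827 and PC-9. In EBC-1 and HCC827, 5 partners were called higher in both (FKBP14, ITGA2, ITGA6, ITGB1 and SERPINH1) and 6 lower in both (BCAM, FKBP10, ITGA3, P4HB, PPIB and TINAGL1), names given after their values were seen. With the length and GC trends removed, 4 of these 11 were still called in both lines (FKBP10, ITGA6, P4HB and SERPINH1). The share of all genes called the same way in both lines was not computed. Neither these counts nor those of the sublists below are read as particular to the partners.

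Of 19 collagen folding and modification genes, EBC-1 had 2 higher and 9 lower of 17 tested. SERPINH1, the collagen chaperone HSP47, was at 39.2, 37 and 41.6 in nc and at 64.9, 58.7 and 60.5 in shSYK in EBC-1 (log2 fold change 0.63, limma adjusted p = 0.000735), and was higher in HCC827 too (0.39, limma adjusted p = 0.00173). PPIB, the prolyl isomerase cyclophilin B, was at 198, 216 and 211 in nc and at 142, 135 and 133 in shSYK in EBC-1 (-0.61, limma adjusted p = 0.000503). P3H3 (-0.79), PLOD1 (-0.56) and FKBP10 (-0.50), which modify or fold collagen in the endoplasmic reticulum, were also called lower there. In HCC827, 5 were higher and 6 lower of 16, and P3H2, a prolyl 3-hydroxylase, was at 1.53, 1.96 and 1.24 in nc and 6.18, 4.78 and 4.18 in shSYK (1.23, limma adjusted p = 0.00104). In PC-9 none of 16 was called by limma, with 1 higher and 1 lower at an unadjusted p under 0.05.

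Of 14 processing and crosslinking genes, EBC-1 had 2 higher and 4 lower of 7 tested, HCC827 1 higher of 6, and PC-9 1 lower of 8. In EBC-1 ADAMTS14, a procollagen protease, was at 0.95, 0.826 and 0.949 in nc and 2.98, 3.5 and 2.76 in shSYK (log2 fold change 1.09, limma adjusted p = 0.000363), PCOLCE, an enhancer of the protease BMP1, fell by 1.06 (0.000741) and PXDN, which crosslinks type IV collagen, fell by 0.50 (0.00285). ADAMTS14 passed the filter through its shSYK libraries. In PC-9 LOXL4, a lysyl oxidase, was at 39.1, 30.1 and 31.1 in nc and at 13.7, 16.6 and 14 in shSYK (-1.12, limma adjusted p = 0.0132), the only listed partner called in that line.

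Of 10 basement membrane partners, TINAGL1, a matricellular protein of basement membranes, was the largest fall of the list in EBC-1, at 371, 298 and 366 in nc and 116, 121 and 96.9 in shSYK (log2 fold change -1.62, limma adjusted p = 0.000119). HSPG2, the perlecan that links laminin and type IV collagen, was also lower there (-0.59, limma adjusted p = 0.0127). In HCC827 NTN4, a netrin that binds laminin gamma chains, was at 24.7, 25.5 and 22.2 in nc and 58.3, 46.7 and 44.7 in shSYK (1.01, limma adjusted p = 0.00059). Of 14 receptors, 4 were higher and 2 lower of 10 tested in EBC-1, 3 higher and 6 lower of 10 in HCC827 and none of 10 in PC-9 (2 higher and 1 lower at an unadjusted p under 0.05). ITGA6, an integrin chain that binds laminins, was higher in EBC-1 (0.54, limma adjusted p = 0.00153) and HCC827 (0.46, limma adjusted p = 0.00172). BCAM, a receptor for the LAMA5 chain, was lower in EBC-1 (-1.05, limma adjusted p = 0.00104) and HCC827 (-0.25, limma adjusted p = 0.0222), and DDR1, a collagen receptor kinase, was lower in HCC827 (-0.52, limma adjusted p = 0.000607).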

How the data were processed

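The authors isolated RNA with TRIzol, ran the libraries on an Illumina HiSeq instrument and mapped the reads to hg38. The submitters' processing notes name CASAVA and HISAT2 and the builds hg19, hg38, GRCh37 and GRCh38 without a role, and the version, the counting program, its strand setting and the annotation are not given in the sources used here. The deposited values are FPKM, which the authors computed per gene from reads, gene length and a denominator per library, in a separate table for each line. No library was left out. FPKM times length gave whole reads in each library (100% of values within 0.01). Replicates differed by more than sampling noise (chi-square per degree of freedom between replicates 2.11 to 38.7, the highest between PC-9 nc replicates 1 and 2). Read numbers cover counting error only. Gene positions are those of the tables, and 99.96% of the identifiers shared with GENCODE v44 (GRCh38) overlapped their position there, from which GC content was taken.

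From the deposited FPKM, log2(FPKM + 1) was tested in R 4.3.3 with limma 3.58.1 (variance trend, two-sided, Benjamini-Hochberg over all genes tested in a line). A gene entered a line's test where its 6 libraries averaged FPKM 1 or more. Differences between lines came from a fit of 18 libraries, over genes at FPKM 1 in at least 1 line. Sums and ratios were computed with Python 3.11.15, numpy 2.4.6, pandas 2.3.3 and scipy 1.17.1 and compared by exact permutation tests. The script was tested on simulated data. Promoter windows came from RefSeq (GRCh38.p14), and protein sequences were not used here. Limma-voom on the recovered reads called 3037 genes higher and 2972 lower in EBC-1, 123 and 290 in PC-9, and 2518 and 2681 in HCC827. Further alternatives changed the filter (none, or an average of FPKM 5), the pseudocount (0.1) or the scaling (an equal sum, quantile normalization), or used no variance trend, all 18 libraries, a replicate block, removal of trends on length or on length and GC content (lowess, span 0.3), each library left out, a minimum of 0.5 for expression, and chain sums divided by the total FPKM of the library.

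The chain genes, the partner list and the marker lists were chosen with earlier results of these data known. By rule, chains at a mean FPKM of 1 in at least 1 line were named, with COL1A2, COL5A2, COL6A3 and COL8A1, and partners where called with a log2 fold change of at least 0.5 in size. COL3A1 and the chains of the closing section were added after their values were seen. The values of 1 chain gene, which is included in the counts and sums, are not reported here, and the plots of single chains leave it out.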

Additional observations from a re-analysis of the deposited data

Results flagged for a closer look

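Each result here was picked out because the response to shSYK of a chain differed between 2 cell lines in the limma fit of all 18 libraries, past the 0.05 threshold after Benjamini-Hochberg adjustment. The values are differences of log2 fold changes, the first line minus the second, and their causes were not tested.

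Between EBC-1 and PC-9 the type VI chains differed most, COL6A2 by -1.90 and COL6A1 by -1.25, followed by COL18A1 (-1.01). The type IV chains COL4A6 (0.87) and COL4A5 (0.64) and the fibrillar chains COL27A1 (0.52) and COL5A1 (0.40) responded more positively in EBC-1. Of the laminins, LAMB3 (-0.68) and LAMC1 (-0.46) responded more negatively in EBC-1 and LAMA4 (0.31) more positively. COL12A1 (0.62) and COL7A1 (0.41) completed the 12. COL12A1 was under FPKM 1 in EBC-1, and COL4A6, COL5A1 and COL27A1 were under it in PC-9, so these 4 compare a chain with a line that hardly expressed it.

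Between EBC-1 and HCC827, COL6A2 (-1.09), COL18A1 (-0.78), COL4A1 (-0.51), LAMC3 (-0.45), LAMB2 (-0.32) and COL16A1 (-0.28) responded more negatively in EBC-1. LAMA4 (0.57), COL4A6 (0.57), COL4A5 (0.48), COL17A1 (0.45), COL5A1 (0.34) and LAMA3 (0.33) responded more positively there. COL16A1 was under FPKM 1 in both lines, and COL4A1, LAMC3, COL4A6, COL5A1, COL6A2 and LAMA4 in 1 of the 2. The difference of COL5A1 was called in 6 of 23 alternatives and ranged from -0.34 to 0.47, so its direction turned. LAMA3 was called in 10, LAMC3 in 7 and COL16A1 in 5 of the 23.

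Between PC-9 and HCC827, COL6A2 (0.81) and COL6A1 (0.76) responded more positively in PC-9, and COL12A1 (-0.61), COL4A1 (-0.57) and COL7A1 (-0.57) more negatively. Of these 5, COL6A1 alone was above FPKM 1 in both lines, and its difference (limma adjusted p = 0.0414) was called in 8 of 23 alternatives.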

How the results depend on the processing

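Over all 54 tested pairs of a chain and a line reported here, 768 of 894 values kept their direction and their side of the threshold. In 49 values a call was lost, in 40 a call was gained (33 of them in PC-9), and in 37 the sign turned. The sign turned for 14 of the 54, none of the 20 called, and the reported log2 fold change of these was at most 0.178 in size. With length and GC trends removed, an alternative picked once the data had been seen, the values were 0.0070 for COL11A2 and 0.0052 for COL7A1 in EBC-1, 0.0832 for COL9A2 and 0.0165 for LAMB2 in HCC827, and 0.0106 for COL13A1, 0.0296 for COL18A1 and 0.102 for COL1A1 in PC-9. An equal sum gave 0.0433 for LAMA3 in HCC827 and -0.0266 for LAMB1 in PC-9. Quantile normalization gave -0.0141 for COL4A5 and 0.0433 for LAMA3 in HCC827, and 0.0059 for COL13A1, 0.0136 for COL1A1 and -0.0138 for LAMB1 in PC-9, and limma-voom 0.0032 for LAMA3 in HCC827. Leaving out a library gave, in HCC827, -0.0261 to 0.0644 for COL4A5, -0.0423 to 0.215 for COL6A1, -0.0497 to 0.0102 for LAMA3, -0.0590 to 0.0818 for LAMB1 and -0.0305 to 0.0483 for LAMB3. In PC-9 it gave -0.114 to 0.0602 for COL13A1, -0.255 to 0.0774 for COL18A1, -0.148 to 0.117 for COL1A1, -0.0031 to 0.111 for LAMA3 and -0.0613 to 0.0773 for LAMB1. The cause of these changes was not tested.

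When the test was limited to genes at a mean FPKM of 5, EBC-1 had 4 chains and 5 partners higher (7 and 8 as reported), PC-9 1 chain higher (0) and HCC827 1 chain higher (2). Libraries rescaled to an equal sum gave 5 chains lower in EBC-1, 3 higher and 1 lower in PC-9 with 2 partners higher and 3 lower, and 2 chains and 8 partners lower in HCC827. Quantile normalization gave 3 chains higher and 2 lower and 3 partners higher and 3 lower in PC-9, and 1 chain lower in HCC827. The fit of all 18 libraries gave 4 chains higher and 5 lower in PC-9 with 5 partners higher and 4 lower, and in HCC827 2 chains lower, 5 partners higher and 3 lower. Removal of the length and GC trends gave 3 chains higher and 1 lower in PC-9 with 6 partners higher and 4 lower, and in HCC827 5 chains higher, 1 lower and 5 partners lower. Removal of the length trend alone gave 1 chain and 1 partner higher in PC-9. Limma-voom on recovered reads gave 1 chain higher and 1 lower and 2 partners each way in PC-9, no variance trend gave 1 chain higher there, and a pseudocount of 0.1 gave 1 lower. With no filter, HCC827 had 1 chain lower, PC-9 0 partners lower, and EBC-1 against HCC827 7 different chains. The pseudocount of 0.1 gave 6 for EBC-1 against HCC827 and 3 for PC-9 against HCC827 (12 and 5 as reported). Divided by the total FPKM of each library, also picked later, the summed chain FPKM of shSYK was 0.983 of nc in EBC-1 (0.898 as deposited). Over all genes, the PC-9 calls of 82 higher and 171 lower became 660 and 851 in the fit of all 18 libraries and 22 and 25 with no filter, the highest and the lowest of its alternatives with all libraries.

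Leaving out a library gave 6 to 8 chains higher and 4 to 8 lower in EBC-1, 0 to 3 and 0 to 1 in PC-9, and 2 and 1 to 3 in HCC827. The 4 lower in EBC-1 came without nc replicate 1 or 3, and the 3 higher in PC-9 without nc replicate 1 (1 without nc replicate 2). HCC827 had 1 chain lower without nc replicate 1, nc replicate 2 or shSYK replicate 3, and 2 without shSYK replicate 2. Partners ranged from 6 to 8 higher in EBC-1, from 0 to 2 higher (2 without nc replicate 1) and 0 to 3 lower in PC-9 (3 without nc replicate 2, 0 without nc replicate 3 or any shSYK library), and from 6 (without nc replicate 1) to 9 higher in HCC827. Chains with a different response ranged from 10 to 15 for EBC-1 against PC-9, from 5 (without EBC-1 shSYK replicate 3 or HCC827 shSYK replicate 1) to 14 for EBC-1 against HCC827 (7 without EBC-1 nc replicate 1 or 3 or HCC827 nc replicate 1), and from 3 (without PC-9 nc replicate 3 or shSYK replicate 3) to 8 (without PC-9 nc replicate 1) for PC-9 against HCC827.

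Libraries of the same replicate number did not deviate together, with correlations from -0.219 to 0.325 over the 9 pairs, so the numbers were not taken as pairs. With the replicate number as a block, EBC-1 had 5 chains higher and 6 lower, PC-9 0 and 0, and HCC827 2 and 4, and EBC-1 and HCC827 differed in 6. The EBC-1 calls of LAMA3, LAMB1, LAMB3 and LAMC1 were not made with the block.

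Of depth, the chains under FPKM 1 rest on few reads, and chains near it (COL4A6, COL6A2 and COL9A2 in EBC-1) on as few as 33 reads in a library, with a count of expressed chains of 25, 21 and 18 in EBC-1, PC-9 and HCC827 at a mean FPKM of 0.5.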

Other observations

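Chains under FPKM 1 in a line were not tested there, and in 21 of 111 such pairs of a chain and a line the nc and shSYK libraries did not overlap. The share over all untested genes was not computed, so this count is not read as a response of the chains. Those named here were chosen after their values were seen and are given as values only. In EBC-1, COL12A1 was at 0.0872, 0.108 and 0.102 in nc and 0.378, 0.329 and 0.365 in shSYK (15 to 77 reads per library). In HCC827 it was at 0.0998, 0.109 and 0.0149 in nc and 0.337, 0.324 and 0.279 in shSYK (2 to 43 reads). In PC-9, where it was expressed, it was lower in each shSYK library than in each nc library. COL16A1 in EBC-1 was at 0.54, 0.504 and 0.43 in nc and 0.238, 0.221 and 0.23 in shSYK (24 to 69 reads). COL5A1 in HCC827 was at 0.0124, 0.038 and 0.0083 in nc and 0.161, 0.143 and 0.0655 in shSYK (1 to 18 reads).

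Chains of the alpha3 and alpha4 network of type IV collagen were seen at a low level in PC-9 alone. COL4A4 was at 0.721, 0.756 and 0.863 in nc and 0.411, 0.616 and 0.588 in shSYK (51 to 89 reads per library), and its head-to-head partner COL4A3 at 0.159, 0.556 and 0.42 in nc and 0.271, 0.321 and 0.27 in shSYK. In EBC-1 and HCC827 neither had more than 8 reads in a library. LAMA2, the alpha chain of muscle laminin, was at 0.274 to 0.346 in nc and 0.426 to 0.496 in shSYK in HCC827 (20 to 52 reads).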
